A study of Homo sapiens with 18 samples.

Results

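The p53 target genes described here are MDM2, TP53I3, SESN1, BTG2, GDF15, ZMAT3, RRM2B, XPC and TP53INP1, followed above all after 5-FU. They were chosen by name, and every probe listed under one of their RefSeq transcripts was used, which gave 14 probes for 9 genes of the 19720 genes that could be named on the array. All 14 probes lay well above background on all 18 arrays, so no member was lost to the filter on dim probes. The cells were EpCAM+ cells of the hepatocellular carcinoma (HCC) lines Huh1 and Huh7, isolated by fluorescence-activated cell sorting. EpCAM is the surface molecule that the study used to enrich tumor-initiating cells. Each line gave 3 groups of 3 one-color arrays, namely control, 5-FU (1 µM) and disulfiram (DSF, 0.1 µM), and each drug was given for 48 hours. Copper chloride is listed beside DSF in the methods, and the treatment of the control cells is not described in the sources used here. A single dose and a single time were measured, each line is an established cell line, and no p53 protein was measured.

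The tumor suppressor p53 is a transcription factor that is held at a low level by MDM2 and is stabilised after DNA damage or ribosomal stress. It then switches on genes that halt the cell cycle, repair DNA, limit oxidative damage or start cell death, and MDM2 itself is among them, which closes a feedback loop. 5-FU is a pyrimidine analog that blocks thymidylate synthase and is built into RNA and DNA, and p53 target genes are a familiar readout of such drugs.

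The values are log2 spot intensities relative to the 75th percentile of the same array, so a level of 0 is the 75th percentile and a change of 1 is a doubling. The brightest probe of a gene stands for it, and levels were not compared between genes. A change was called when limma, fitted on all 18 arrays, gave a Benjamini-Hochberg adjusted p under 0.05 over 29894 probes. Replicate arrays of a group correlated at 0.9887 to 0.9972 over these probes, and 59.87% to 71.1% of probes per array lay well above background. All 9 markers of liver cancer cells and of the sort (EPCAM, AFP, ALB, APOA1, TF, KRT8, KRT18, GPC3, SERPINA1) were well above background on all 18 arrays. Of 8 markers of other cells, HBB was at background on all arrays, COL1A2 and ACTA2 were above it on 2 and 4 arrays, and COL1A1 and VWF on 11 and 13. CD68, PECAM1 and 2 of 4 PTPRC probes were above it throughout. In each line the control and 5-FU arrays shared 1 slide. Measured against 7 spike-in probes, the 75th percentile of 5-FU arrays exceeded that of controls by 0.83 (Huh1) and 0.98 (Huh7). Scaled on the spike-ins, the median change of all tested genes after 5-FU moved from -0.03 to 0.80 in Huh1 and from -0.01 to 0.98 in Huh7, and the share of called genes that were higher moved from 47.1% to 98.2% and from 51.2% to 95.5%. Every change given here is therefore relative to the bulk of genes on the array, and under spike-in scaling a fall smaller than those 2 amounts turns into a rise.

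After 5-FU most of the members rose relative to that bulk, but not all of them and not in the same way in both lines. In Huh1, 6 of the 9 genes were called higher (MDM2, SESN1, BTG2, GDF15, ZMAT3, TP53INP1), and of all 15852 tested genes 25.9% were. TP53I3 and XPC were called lower, against 29.1% of all tested genes, and RRM2B was not called. In Huh7, 5 genes were called higher (MDM2, TP53I3, GDF15, ZMAT3, TP53INP1), against 32.5% of all genes. RRM2B and XPC were called lower, against 31% of all genes, and SESN1 and BTG2 were not called. The median change over the members was 0.55 in Huh1 and 0.71 in Huh7. With so large a part of the array called, 2 called lower among 9 genes is no more than the background share. MDM2, GDF15, ZMAT3 and TP53INP1 were called higher in both lines, and 16% of all tested genes were. XPC was called lower in both, as were 17.3% of all genes. TP53I3 alone of the 9 was called in opposite directions, and 6.62% of all genes were. Markers were also called on the same arrays. After 5-FU 3 of the 9 liver cancer cell markers were called higher and 3 lower in Huh1, against 25.9% and 29.1% of all genes. In Huh7, 4 of these markers were called higher and 2 lower, against 32.5% and 31%. Their summed linear level, in multiples of the 75th percentile, ran from 943 to 1003 on control and from 798 to 927.1 on 5-FU arrays in Huh1, and from 1147 to 1172 and from 1121 to 1258 in Huh7. Of the 5 tested markers of other cells, CD68, a macrophage marker, was called higher in both lines (0.68 and 1.59). PECAM1, an endothelial marker, was called higher in Huh7 (1.02) and stood at -0.39 in Huh1, which was not called. COL1A1, a collagen gene, was called lower in Huh1, where 1 of 3 control arrays and 0 of 3 5-FU arrays were above background, and VWF was called lower in Huh7 (-0.52). PTPRC, the leukocyte marker, was not called. The summed level of the 5 ran from 2.64 to 4.81 on control and from 4.73 to 5.00 on 5-FU arrays in Huh1, and from 1.34 to 1.38 and from 2.798 to 4.23 in Huh7. Most of this sum came from CD68. Its log2 level ran from 1.11 to 2.06 on control and from 2.13 to 2.15 on 5-FU arrays in Huh1. In Huh7 it ran from 0.03 to 0.10 on control and from 1.205 to 1.88 on 5-FU arrays. The part of these markers in the results after 5-FU was not tested.

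**Figure D1:**
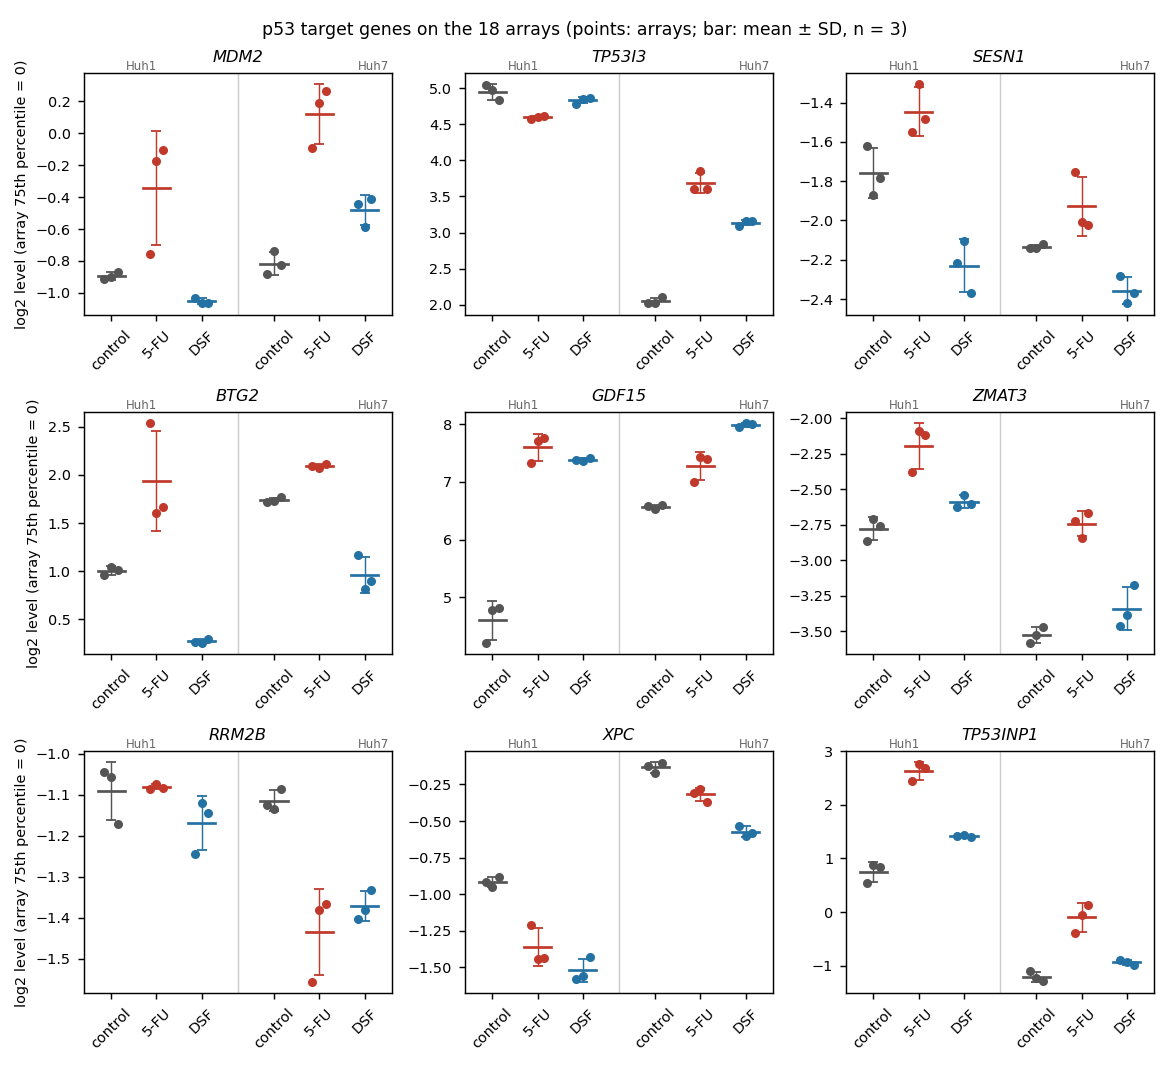
Each panel shows 1 gene, with its log2 level relative to the 75th percentile of the array on the vertical axis and the 6 groups (control, 5-FU and DSF in Huh1, then in Huh7) on the horizontal axis. Points are arrays and the bars give the mean ± SD of 3 arrays. GDF15 and TP53INP1 rise on every 5-FU array of both lines, TP53I3 falls slightly in Huh1 and rises in Huh7, and 1 Huh1 5-FU array of BTG2 stands apart at 2.54.

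MDM2, the ubiquitin ligase that marks p53 for degradation, was higher after 5-FU in both lines. In Huh1 the control arrays stood at -0.91, -0.90 and -0.87 and the 5-FU arrays at -0.76, -0.17 and -0.11. In Huh7 the control arrays stood at -0.88, -0.74 and -0.83 and the 5-FU arrays at -0.09, 0.19 and 0.26. No 5-FU array fell among the controls of its line, although the first 5-FU array of Huh1 lay close to them. The rise was 0.55 (SE 0.14, n = 3 per group, limma adjusted p = 0.00419) in Huh1, or 1.46-fold, and 0.94 (SE 0.14, limma adjusted p = 3.88e-05) in Huh7, or 1.91-fold. Without the first 5-FU array the Huh1 rise was 0.75. The rise in Huh7 exceeded that in Huh1 by 0.39 with a 95% confidence interval from -0.03 to 0.80, a difference that was not called (limma adjusted p = 0.137). The other probes of MDM2 were also called higher, at 0.53 and 0.67 in Huh1 and 0.41 and 0.76 in Huh7. The difference between the untreated lines was not called on the brightest probe (0.08, 95% confidence interval -0.22 to 0.37), while the other 2 probes were called in opposite directions, at 0.26 and -0.24 for Huh7 minus Huh1.

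MDM2 has 2 promoters, and the inner one is the classical p53-responsive one. The windows below are the 250 bases before an outer and an inner start of MDM2 in RefSeq (GRCh38.p14), and they are shown because MDM2 is the member whose promoter is best known to bind p53. The outer window is chr12:68807922-68808171 and the inner one chr12:68808767-68809016, both on the plus strand. Capitals mark matches to the p53 half-site, the 10-base pattern that the p53 protein reads in pairs, searched on both strands with at most 1 mismatch outside its core C and G.
MDM2 outer start: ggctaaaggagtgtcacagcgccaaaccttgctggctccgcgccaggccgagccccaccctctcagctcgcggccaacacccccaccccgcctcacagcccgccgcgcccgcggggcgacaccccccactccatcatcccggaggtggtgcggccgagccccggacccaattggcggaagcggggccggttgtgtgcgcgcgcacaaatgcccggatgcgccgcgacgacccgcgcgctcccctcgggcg
MDM2 inner start: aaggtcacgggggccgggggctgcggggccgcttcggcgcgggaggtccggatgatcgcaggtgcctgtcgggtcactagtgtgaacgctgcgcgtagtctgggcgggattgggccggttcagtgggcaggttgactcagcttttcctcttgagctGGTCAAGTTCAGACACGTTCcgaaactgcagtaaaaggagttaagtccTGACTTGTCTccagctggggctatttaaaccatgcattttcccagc
The inner window held 3 matches, GGTCAAGTTC and AGACACGTTC side by side at 94 and 84 bases before the start and TGACTTGTCT at 46 bases. No match of these letters lay in the outer window. Of 35093 such windows over all genes, 39.3% held at least 1 half-site with up to 1 mismatch, 5.6% held an exact one and 1.6% held a pair of half-sites at most 13 bases apart. The table of promoters gave 13 windows for 7 of the 9 members, and none for RRM2B and TP53INP1. Besides the 2 overlapping inner windows of MDM2, no member window held such a pair. A half-site with 1 mismatch also lay in a window of ZMAT3 and in a window of SESN1. Sequence outside these windows was not searched, so sites elsewhere in the genes would be missed. The arrays do not tell from which start a transcript came.

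SESN1, a sestrin that restrains mTORC1 signaling and helps to regenerate peroxiredoxins, is shown with the window of 1 of its starts, since it alone of the 13 member windows held an exact half-site (in capitals). The window is chr6:109008989-109009238 of GRCh38.p14 in RefSeq, read on the minus strand.
SESN1: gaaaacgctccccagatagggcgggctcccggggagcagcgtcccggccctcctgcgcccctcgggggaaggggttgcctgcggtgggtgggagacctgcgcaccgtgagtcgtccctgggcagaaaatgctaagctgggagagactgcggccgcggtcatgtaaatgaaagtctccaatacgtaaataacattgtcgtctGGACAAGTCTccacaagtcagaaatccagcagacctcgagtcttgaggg
The half-site lay 49 bases before that start. On the arrays SESN1 moved little after 5-FU. In Huh1 the control arrays stood at -1.62, -1.87 and -1.78 and the 5-FU arrays at -1.55, -1.31 and -1.49, with the highest control close to the lowest 5-FU array. The change was 0.31 (SE 0.10, limma adjusted p = 0.0145), and the call was lost without the second control array (0.26, limma adjusted p = 0.0646) or without the second 5-FU array (0.24, limma adjusted p = 0.0745). In Huh7 the control arrays lay together at -2.14, -2.14 and -2.12 and the 5-FU arrays at -1.75, -2.01 and -2.02. The change there was 0.21 (SE 0.10) with a 95% confidence interval from 0.00 to 0.41, and it was not called (limma adjusted p = 0.0793).

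BTG2, an antiproliferative protein that recruits mRNA deadenylases and slows the entry into S phase, rose in Huh1. Its 3 control arrays stood at 0.96, 1.05 and 1.02 and its 5-FU arrays at 2.54, 1.60 and 1.67. The first 5-FU array lay far above the other 2, and all 3 lay above the controls. The change was 0.93 (SE 0.18, limma adjusted p = 0.000605), or 1.91-fold, and 0.63 without the first 5-FU array (limma adjusted p = 3.8e-05). In Huh7 the control arrays stood at 1.72, 1.73 and 1.77 and the 5-FU arrays at 2.09, 2.07 and 2.12. The groups did not overlap and were tight, yet the change of 0.35 (SE 0.18, 95% confidence interval -0.03 to 0.73) was not called (limma adjusted p = 0.107). All groups share 1 estimate of the spread, which includes the first 5-FU array of Huh1. Without that array the same change of 0.35 had SE 0.07 and was called (limma adjusted p = 0.00108), and it was also called when the Huh7 arrays alone were fitted (limma adjusted p = 0.011). The difference between the lines was -0.58 (95% confidence interval -1.12 to -0.04, limma adjusted p = 0.0878) and was not called. Without the first 5-FU array of Huh1 it was -0.28 and not called (limma adjusted p = 0.0648), and without the second or the third it was -0.75 or -0.71, both called.

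CDKN1A, which encodes p21 and is the classical arrest gene downstream of p53, rose in both lines. Its levels in Huh1 were -1.52, -1.88 and -1.88 on control arrays and -0.87, -0.67 and -0.67 on 5-FU arrays. In Huh7 they were -2.42, -2.47 and -2.32 on control arrays and -1.16, -0.93 and -1.32 on 5-FU arrays. The rise was 1.03 (SE 0.11, limma adjusted p = 3.69e-06) in Huh1 and 1.27 (SE 0.11, limma adjusted p = 1.94e-07) in Huh7, and the difference of 0.24 between the lines was not called (95% confidence interval -0.08 to 0.57). After DSF CDKN1A stood at -1.31, -1.29 and -1.17 in Huh1, above every control array. In Huh7 it stood at -3.17, -3.17 and -3.19 after DSF, below every control array. With each array left out the DSF change ran from 0.445 to 0.624 in Huh1 and from -0.805 to -0.734 in Huh7. It was called in 18 of 18 such fits in each line. In Huh7, 2 of the 3 DSF arrays lay on another slide than the controls, and every such fit kept at least 1. The Huh7 DSF array on the slide of the controls stood at -3.17.

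TP53I3, a quinone oxidoreductase that generates reactive oxygen species, moved in opposite directions in the lines. In Huh1 it stood at 5.04, 4.97 and 4.83 on control arrays and at 4.58, 4.60 and 4.61 on 5-FU arrays. In Huh7 it stood at 2.02, 2.03 and 2.10 on control arrays and at 3.60, 3.85 and 3.60 on 5-FU arrays. The high level of untreated Huh1 thus dipped, and the low level of untreated Huh7 climbed, with no overlap between control and 5-FU arrays in either line. The change was -0.35 (SE 0.07, limma adjusted p = 0.00109) in Huh1, which became 0.48 under spike-in scaling, where the median gene stood at 0.80. In Huh7 it was 1.63 (SE 0.07, limma adjusted p = 4.42e-10), or 3.10-fold. The difference between the lines was 1.99 (SE 0.10, limma adjusted p = 1.79e-08). The second probe gave -0.35, 1.63 and 1.99 for the same comparisons. All 6 groups kept apart in their order, from control, DSF and 5-FU in Huh7 up to 5-FU, DSF and control in Huh1, except that the DSF and control arrays of Huh1 overlapped.

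TP53INP1, a stress protein that supports p53 phosphorylation and also acts in autophagy, rose strongly in both lines from different starting levels. In Huh1 the control arrays stood at 0.54, 0.88 and 0.83 and the 5-FU arrays at 2.44, 2.76 and 2.69. In Huh7 the control arrays stood at -1.105, -1.23 and -1.29 and the 5-FU arrays at -0.39, -0.05 and 0.13. On this probe every Huh7 array after 5-FU still lay below every untreated Huh1 array. The rise was 1.88 (SE 0.12, limma adjusted p = 7.56e-08) in Huh1, or 3.69-fold, and 1.11 (SE 0.12, limma adjusted p = 2.98e-06) in Huh7, or 2.16-fold. The rise in Huh7 was smaller by a difference of -0.77 (SE 0.17, limma adjusted p = 0.00327). A second probe rose by 2.47 in Huh1 and 1.71 in Huh7, with a difference of -0.76. On that probe the third Huh7 5-FU array (-2.93) lay above 2 of the 3 untreated Huh1 arrays (-3.12, -3.08 and -2.91).

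GDF15, a secreted cytokine of the TGF-beta superfamily that responds to p53 and to other stress pathways, had the largest change of the 9 genes in Huh1. There the control arrays stood at 4.20, 4.78 and 4.81 and the 5-FU arrays at 7.33, 7.71 and 7.75. In Huh7 the control arrays already stood at 6.57, 6.54 and 6.60 and the 5-FU arrays at 7.003, 7.44 and 7.39. The lines thus reached overlapping levels after 5-FU from unequal controls. The rise was 3.00 (SE 0.16, limma adjusted p = 1.22e-08) in Huh1, or 8.02-fold, and 0.71 (SE 0.16, limma adjusted p = 0.00123) in Huh7, or 1.63-fold. The difference between the lines was -2.29 (SE 0.22, limma adjusted p = 3.17e-06), and it lay between -2.43 and -2.10 when each array was left out in turn.

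ZMAT3, an RNA-binding zinc finger protein that takes part in mRNA stability and splicing, rose in both lines. In Huh1 the control arrays stood at -2.87, -2.71 and -2.76 and the 5-FU arrays at -2.38, -2.09 and -2.12. In Huh7 they stood at -3.58, -3.53 and -3.47, and at -2.72, -2.84 and -2.67 after 5-FU. The groups did not overlap in either line. The rise was 0.58 (SE 0.09, limma adjusted p = 0.000105) in Huh1 and 0.79 (SE 0.09, limma adjusted p = 3.74e-06) in Huh7, and the difference of 0.20 was not called (95% confidence interval -0.07 to 0.47). With normexp background correction the rise fell to 0.36 and 0.41 and stayed called in both lines.

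RRM2B, the p53-inducible small subunit of ribonucleotide reductase that supplies deoxynucleotides for repair, did not rise. Its control and 5-FU arrays in Huh1 overlapped, at -1.04, -1.06 and -1.17 against -1.08, -1.07 and -1.08, with a change of 0.01 (95% confidence interval -0.12 to 0.14). In Huh7 the control arrays stood at -1.12, -1.13 and -1.08 and the 5-FU arrays lower, at -1.56, -1.38 and -1.37. The change there was -0.32 (SE 0.06, limma adjusted p = 0.000421), and the difference between the lines was -0.33 (SE 0.09, limma adjusted p = 0.00802). A second probe showed neither, with 0.21 in Huh1 (limma adjusted p = 0.0521), 0.00 in Huh7 and an uncalled difference of -0.20. The fall in Huh7 thus rests on 1 of the 2 probes, and under spike-in scaling it became 0.66, below the median gene at 0.98.

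XPC, which recognises damaged DNA in nucleotide excision repair, was lower after 5-FU. In Huh1 the control arrays stood at -0.92, -0.95 and -0.88 and the 5-FU arrays at -1.21, -1.44 and -1.43. In Huh7 they stood at -0.12, -0.17 and -0.10, and at -0.31, -0.28 and -0.37 after 5-FU. Each 5-FU array was below each control of its line. The change was -0.45 (SE 0.07, limma adjusted p = 8.32e-05) in Huh1 and -0.19 (SE 0.07, limma adjusted p = 0.0284) in Huh7, and it became 0.38 and 0.80 under spike-in scaling. The Huh7 call was lost without the first control array (-0.18), the third control array (-0.17) or the third 5-FU array (-0.16). The fall was smaller in Huh7 by 0.26 (SE 0.09, limma adjusted p = 0.0436), a call that held in 4 of 18 fits with 1 array left out.

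Over the 9 genes, the difference between the lines in the effect of 5-FU (Huh7 minus Huh1) was called higher for TP53I3 and XPC, against 23.7% of all tested genes, and called lower for GDF15, RRM2B and TP53INP1, against 19.9%. MDM2, SESN1, BTG2 and ZMAT3 were not called. The difference between the untreated lines was called higher in Huh7 for BTG2, GDF15 and XPC, against 39.3% of all genes, and lower for TP53I3, SESN1, ZMAT3 and TP53INP1, against 38.6%. It was -2.90 for TP53I3, -1.96 for TP53INP1 and 1.97 for GDF15. Controls of the lines lay on different slides, and the only link between these slides is 1 Huh1 DSF array. A fixed slide block takes its correction from that array, so it cannot separate line from slide. With the block these 3 differences were -2.95, -1.92 and 1.93. Those of SESN1 (-0.38 against -0.17 with the block) and BTG2 (0.73 against 0.70) were no longer called.

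DSF, which was run beside 5-FU in both lines, gave a different profile over the same genes. In Huh1, GDF15 and TP53INP1 were called higher (26.4% of all genes were) and SESN1, BTG2 and XPC lower (26.3%), where SESN1 lost its call under spike-in scaling. In Huh7, TP53I3 and GDF15 were called higher (29.1%) and BTG2, RRM2B and XPC lower (24.1%). Of the 3 DSF arrays of Huh7, 2 lay on a slide of their own, scanned on another day, while the controls of Huh7 and the remaining DSF array shared a slide, and 1 DSF array of Huh1 lay on the slide of the Huh7 controls. With slide as a fixed block, the change after DSF in Huh7 rests on the 1 DSF array that shares the slide of the controls. Only effect sizes are given for it. The median over the members in Huh7 went from 0.19 to 0.07, and BTG2 changed by -0.57. In Huh1 the member calls after DSF were kept with the block. GDF15 rose by 2.79 in Huh1 (SE 0.16, limma adjusted p = 8.25e-09) and by 1.42 in Huh7 (SE 0.16, limma adjusted p = 5.62e-06). BTG2 moved against its 5-FU change, by -0.73 (limma adjusted p = 0.00372) in Huh1 and -0.78 (limma adjusted p = 0.00251) in Huh7. Its 5-FU change in Huh7 was not called. TP53I3 rose by 1.09 in Huh7 (limma adjusted p = 5.74e-08) and changed by -0.11 in Huh1, which was not called. MDM2 was not called on its brightest probe, at -0.16 in Huh1, and at 0.34 in Huh7 with limma adjusted p = 0.0561, but its other probes were called in Huh7, at 0.36 and 0.59. In Huh1 these other probes had the opposite sign to the brightest. One stood at -0.73, -0.79 and -0.72 after DSF against -1.04, -0.86 and -0.95 on control arrays. The other stood at -2.68, -2.655 and -2.745 against -2.96, -2.82 and -2.84. The second probe of TP53INP1 was called in Huh7 at 1.47, where the brightest was not (0.28), and the second probe of RRM2B was called higher in Huh1 at 0.53, where the brightest was not (-0.08). Of the 9 markers of liver cancer cells, 8 were called lower after DSF in Huh1 and 6 in Huh7, and their part in these values was not tested.

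Set directly against DSF, 5-FU left MDM2, SESN1, BTG2, ZMAT3 and TP53INP1 higher in Huh1 (25.3% of all genes were) and TP53I3 lower (30.5%). In Huh7 it left all members but GDF15 and RRM2B higher, which makes 7 of 9 (30.7%), and GDF15 lower (34.5%). BTG2 differed most, by 1.66 in Huh1 (SE 0.18, limma adjusted p = 3.86e-06) and 1.13 in Huh7 (SE 0.18, limma adjusted p = 7.54e-05). The difference of GDF15 between the drugs was not called in Huh1 (0.21, 95% confidence interval -0.12 to 0.55), and GDF15 was lower after 5-FU than after DSF in Huh7 (-0.71, limma adjusted p = 0.00116). Under quantile scaling the GDF15 difference was called in Huh1 (0.58) and fell away in Huh7 (-0.06, not called). The TP53I3 difference in Huh1 (-0.24) was not called under quantile scaling (-0.13) or median scaling (-0.09). With slide as a fixed block, which leaves the Huh7 comparison with 1 DSF array, the XPC difference was 0.21 in Huh7. In Huh1 XPC gained a call with the block (0.21). For MDM2 in Huh7 the difference was called on the brightest probe (0.60) but not on the other 2 (0.06 and 0.17), and for TP53INP1 in Huh7 on the brightest (0.83) but not on the other (0.24). The second probe of RRM2B was lower after 5-FU than after DSF in Huh1, at -0.32. Under spike-in scaling the lower values of TP53I3 in Huh1 and GDF15 in Huh7 turned to 0.45 and 0.45. The doses and the time of the drugs were not matched for effect, and the comparison holds for these doses only.

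**Figure D2:**
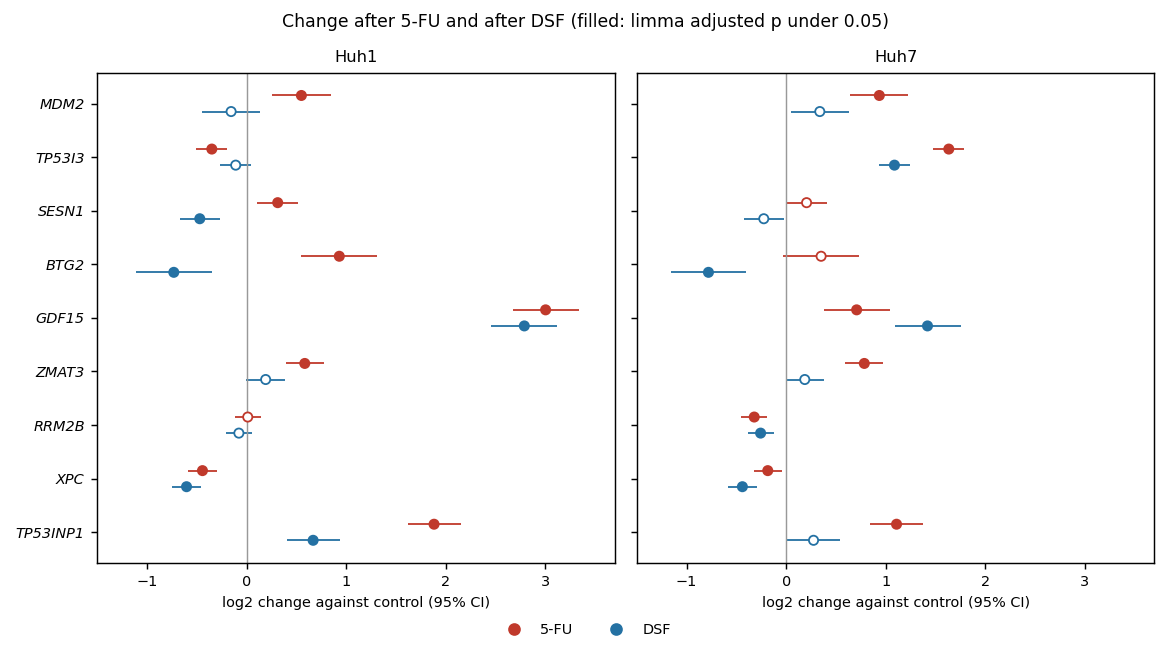
The horizontal axis gives the log2 change against control with its 95% confidence interval from limma for each of the 9 genes, in Huh1 on the left and Huh7 on the right, after 5-FU (red) and DSF (blue). Filled points were called at an adjusted p under 0.05. The plot shows GDF15 raised by both drugs in both lines, and TP53I3 raised in Huh7 and not in Huh1. BTG2 lies above 0 after 5-FU, where its change in Huh7 was not called, and below 0 after DSF.

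The first of 3 pathway lists holds 54 other direct targets of p53, and 50 of them were tested. In Huh1, 30 were called higher and 8 lower after 5-FU, with a median change of 0.43, and in Huh7, 22 were called higher and 17 lower, with a median of 0.25. The background shares are those given above for all tested genes, whose median was -0.03 and -0.01. The lower count in Huh7, 34% of the list, is close to the 31% of all genes. In both lines 17 of the 50 were called higher and 4 lower, while 9 were called in opposite directions. PLK2, a polo-like kinase of the stress response, rose by 1.39 in Huh1 and 2.32 in Huh7. EPHA2, an ephrin receptor, rose by 1.67 and 1.03. FHL2, a LIM domain cofactor, rose by 1.44 and 1.13, and GADD45A, a growth arrest and DNA damage protein, by 1.52 and 1.02. By the naming rule, the genes with the largest called differences between the lines were BBC3, LIF and FAS. BBC3, which encodes the cell death protein PUMA, changed by 1.45 in Huh1 and -1.20 in Huh7, and LIF, a cytokine, by 1.11 and -1.34, each called in both lines. FAS, a death receptor, gave 1.27 and -0.77, also called, but its brightest probe was above background on 2 of 3 Huh1 control arrays and 2 of 3 Huh7 5-FU arrays, so the sizes are uncertain. A second tested probe of FAS was called in neither line (0.82 and -0.44) nor in the difference. Of the 50 genes, 20 had a called lower and 11 a called higher difference, against 19.9% and 23.7% of all tested genes. The higher count, 22% of the list, is close to that of all genes. The median difference was -0.34, where the median of all genes was 0.02.

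The second list, called genes that act on p53 for short, holds 19 genes whose products act on p53 or belong to its family, and 18 were tested. In Huh1, 3 were called higher and 9 lower after 5-FU, against 25.9% and 29.1% of all tested genes, and in Huh7, 4 higher and 9 lower, against 32.5% and 31%. In both lines 7 were called lower, and 17.3% of all genes were. Without the first 5-FU array of Huh1, 7 were called higher in Huh1. TP53BP1, which binds p53 and marks DNA breaks, fell by 0.78 in Huh1 and 1.28 in Huh7. NPM1, a nucleolar protein that can bind MDM2, fell by 0.79 and 0.98, and 2 further probes of it were also called lower in both lines. ATM, the kinase that signals DNA breaks, fell by 0.62 and 0.93 on its brightest probe, while its second probe, also above background on all control and 5-FU arrays, was called in neither line (-0.14 and -0.16). CREBBP, an acetyltransferase that acts on p53, rose by 0.67 and 0.89. The lines differed most in MDM4, the MDM2 partner that masks the p53 activation domain, which rose by 0.55 in Huh1 and fell by 1.01 in Huh7, and its second probe was called the same way (0.40 and -0.77). CHEK2, a checkpoint kinase that phosphorylates p53, rose by 0.31 in Huh1 and fell by 0.48 in Huh7 on its brightest probe. Its second probe was not called in Huh1 (-0.03) and fell by 0.90 in Huh7, so the rise in Huh1 rests on 1 of 2 probes, while the difference between the lines was called on both (-0.80 and -0.87). HIPK2, a kinase that phosphorylates p53, was near background in Huh1, where its brightest probe was above it on 1 of 3 control arrays, so its fitted change there (-0.57, called) has no firm size. In Huh7 it stood at 0.17, which was not called. Its second probe was above background on 0 of 3 control arrays and 3 of 3 5-FU arrays of Huh1, with a fitted change of 0.24 that was not called, and was called higher in Huh7 (0.51).

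The third list holds 28 cell cycle genes known as genes that p53 can lower through p21 and the DREAM complex, a repressor assembled on their promoters, and all were tested. After 5-FU 17 of them were called lower in Huh1 and 3 higher, with a median of -0.33, against 29.1% lower and 25.9% higher over all tested genes. In Huh7, 9 were called lower and 12 higher, with a median of 0.01, against 31% lower and 32.5% higher. The lower count in Huh7, 32.1% of the list, is close to that of all genes. PLK1, a mitotic kinase, fell by 1.90 in Huh1 and 0.70 in Huh7. CCNB2 and CCNB1, the B-type cyclins, fell by 1.39 and 1.35 in Huh1 and by 0.52 and 0.33 in Huh7, and a second probe of CCNB1 was not called in Huh7 (-0.19). AURKA, another mitotic kinase, fell by 1.102 in Huh1 and by 0.57 in Huh7. E2F1, a transcription factor of S phase entry, fell by 0.30 in Huh1 and rose by 0.80 in Huh7. CDC25A, a phosphatase that drives S phase, changed by 0.15 in Huh1, which was not called, and rose by 1.22 in Huh7. The difference between the lines was called higher for 22 of the 28 genes, against the 23.7% of all genes given above, and lower for 0 by limma, where 23 and 0 had an unadjusted p under 0.05. Its median was 0.70. After DSF, 17 of the 28 genes were called lower and 0 higher in Huh1, with a median of -0.31. Of all tested genes 26.3% were lower and 26.4% higher there. In Huh7 DSF gave 10 lower and 6 higher, with a median of -0.08, against 24.1% and 29.1% of all genes.

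**Figure D3:**
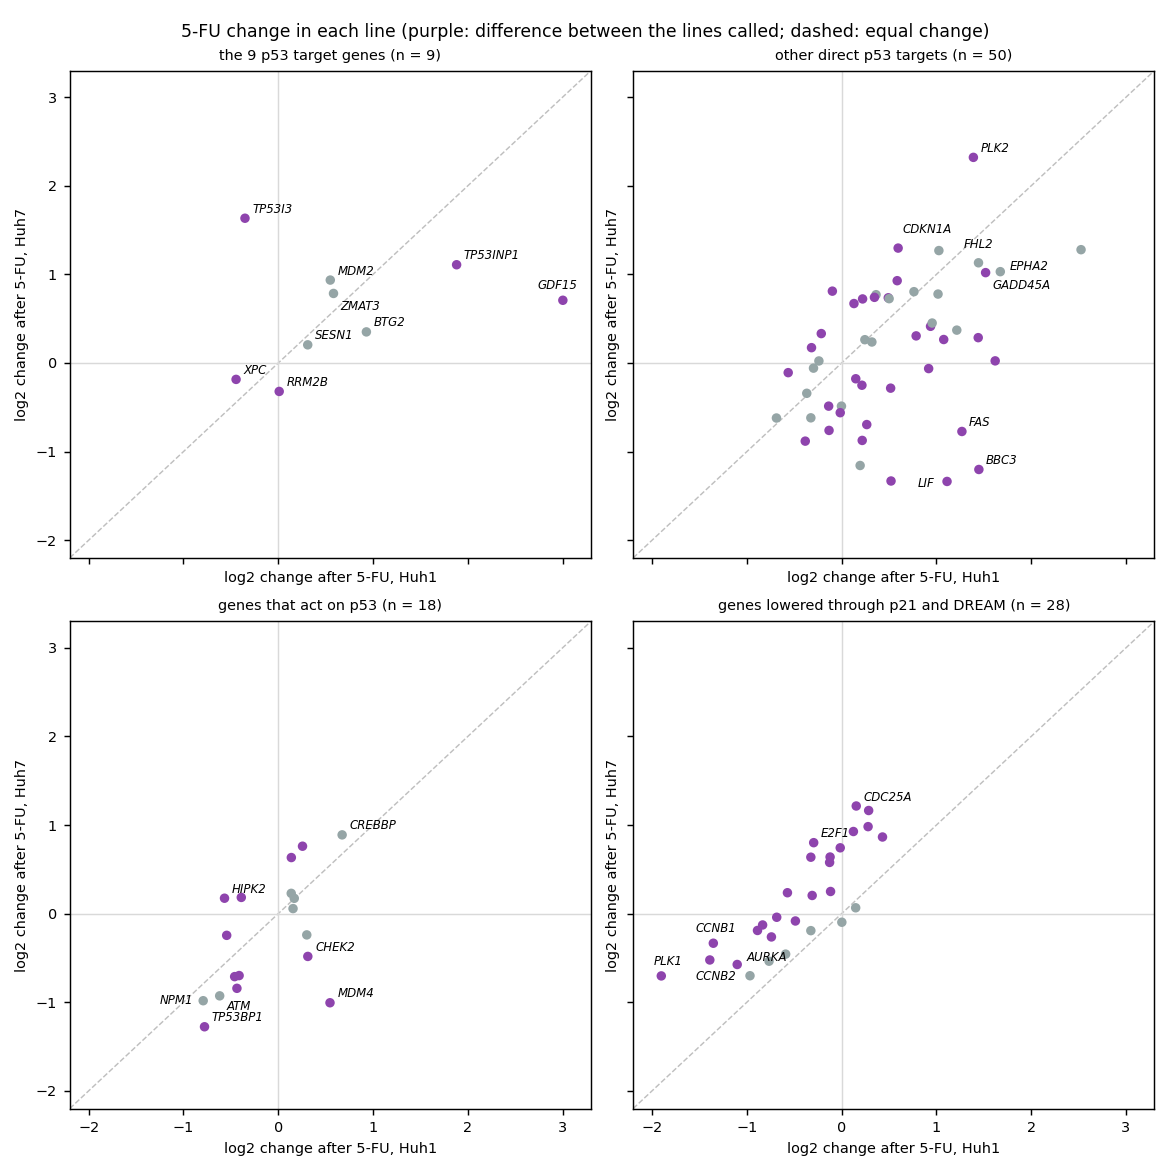
Each point is a gene, with its log2 change after 5-FU in Huh1 on the horizontal axis and in Huh7 on the vertical axis, for the 9 p53 target genes and the 3 pathway lists. Purple points had a called difference between the lines and the dashed line marks equal change. The cell cycle genes lie above the dashed line almost throughout, while TP53I3 and GDF15 lie far from it on opposite sides.

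The 9 genes did not share one pattern over the 6 groups. Each gene was centred on its own mean over the groups, and its root mean square difference from the mean profile of the 9 was 0.20 for ZMAT3, 0.23 for SESN1, 0.34 for RRM2B, 0.37 for MDM2, 0.61 for BTG2, 0.75 for XPC, 0.89 for TP53I3, 1.06 for GDF15 and 1.08 for TP53INP1. Genes outside every list whose profile lay closest to the mean of the members were ZNF382 (0.09), NSUN5 (0.09) and ZNF791 (0.09), out of 6257 genes called after 5-FU in both lines. The mean profile of the 9 stood at -0.14 in Huh1 control, 0.58 after 5-FU and 0.03 after DSF, and at -0.41, 0.17 and -0.23 in Huh7.

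Under normexp background correction, quantile scaling and median scaling, each called 5-FU change of a member kept its sign in both lines. Quantile scaling moved GDF15 in Huh7 to 1.23 and TP53I3 in Huh1 to -0.21, both still called. Spike-in scaling, described above, adds 1 amount per array to every gene and so raised all members alike.

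**Figure D4:**
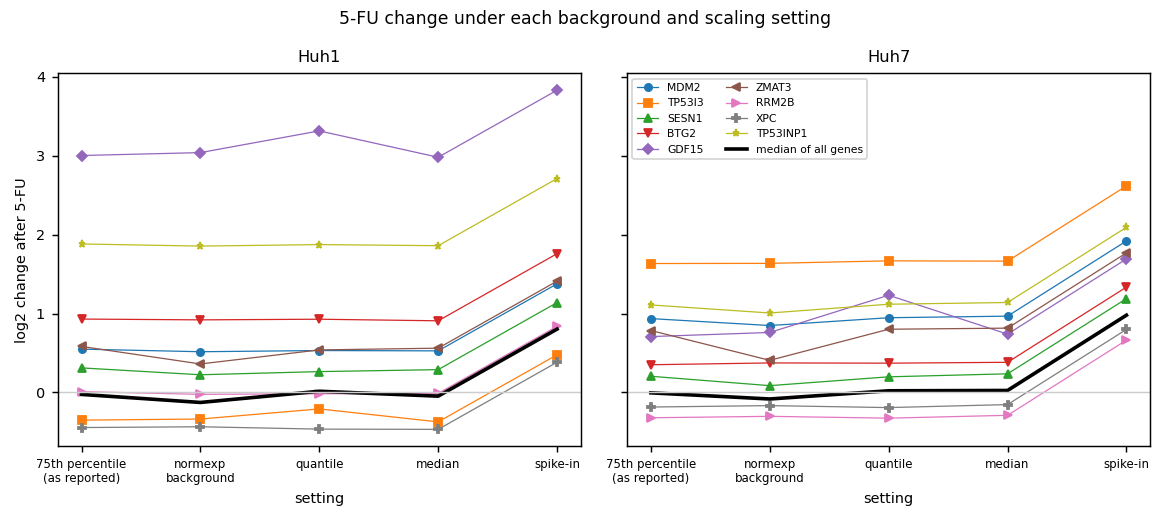
The vertical axis gives the log2 change after 5-FU of each of the 9 genes in Huh1 (left) and Huh7 (right), and the horizontal axis the background or scaling setting. The black line is the median of all tested genes. Spike-in scaling lifts the black line to 0.80 in Huh1 and 0.98 in Huh7 and the members with it, so that TP53I3 in Huh1, RRM2B in Huh7 and XPC in both lines turn positive but stay below that median.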

How the data were processed

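RNA of sorted EpCAM+ cells was labelled with Cy3 and hybridized to 18 one-color arrays (SurePrint G3). The authors deposited Feature Extraction files (version 10.7.1.1 per the file headers) that give the intensity of each spot after subtraction of background and detrending, and a table of normalized intensity scaled to the 75th percentile in GeneSpring. The latter matched the spot files within a constant per array and served as an alternative. The methods state another Feature Extraction version.

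For each array, unflagged spots of a probe were averaged as log2 processed intensity, less the 75th percentile. Of 42405 probes, 78 without an unflagged spot on some array were left out, and 0 spots were saturated. A probe was tested (29894 were) if some group had it well above background on each of its 3 arrays. Of 27134 probes with a RefSeq accession, 25771 were named. One limma fit held all 18 arrays in 6 groups, with 12 residual degrees of freedom and Benjamini-Hochberg adjustment over all probes. Contrasts were each drug against control, 5-FU against DSF, the line difference of the 5-FU effect and the untreated lines. The rank test named in the study's statistics section cannot go below 0.1 with 3 arrays against 3. The study does not say which test gave the p-values of its array selection. The study calls the arrays triplicates of independent experiments, and precision is limited by 3 arrays per group.

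The members, lists and tests were chosen with earlier results of these data known. Named from each pathway list were the 4 genes with the largest mean change among those called alike in both lines and the 3 with the largest called line difference. CDKN1A and the 3 genes of most similar profile were also named. One further gene of the naming rule is not reported here and was left out of the lists. The script was tested on simulated data. In all 16 alternatives were planned, and 1, without the 2 Huh7 DSF arrays of the third slide, was added after seeing the data. The normexp alternative used median spot signals, since no mean signal is in the files. The fits used limma 3.58.1 in R 4.3.3, and tables and plots used pandas 2.3.3, matplotlib 3.10.9 and numpy 2.4.6 in Python 3.11.15. Promoters came from RefSeq (GRCh38.p14).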

Additional observations from a re-analysis of the deposited data

Results flagged for a closer look

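The effect of 5-FU differed between Huh7 and Huh1 by the interaction term of the limma fit for the following genes, given as the log2 change in Huh7 minus that in Huh1. Among the 9 p53 target genes the differences were 1.99 for TP53I3, -2.29 for GDF15, -0.33 for RRM2B, 0.26 for XPC and -0.77 for TP53INP1. That of RRM2B was not called on its second probe, and that of XPC was lost in 14 of 18 fits with 1 array left out. Among other direct p53 targets the differences were 0.93 for PLK2, -0.50 for GADD45A, -2.65 for BBC3, -2.45 for LIF and -2.04 for FAS. The FAS probe was above background on 2 of 3 Huh1 control and 2 of 3 Huh7 5-FU arrays, and a second probe was not called (-1.26). Among genes that act on p53 they were -0.50 for TP53BP1, -1.55 for MDM4, -0.80 for CHEK2 and 0.74 for HIPK2. The HIPK2 probe was above background on 1 of 3 Huh1 control arrays, and on its second probe, which was above it on 0 of 3, the difference was not called (0.27). Among the cell cycle genes they were 1.20 for PLK1, 0.87 for CCNB2, 1.02 for CCNB1, 0.53 for AURKA, 1.096 for E2F1 and 1.06 for CDC25A.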

How the results depend on the processing

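With spike-in scaling, 5-FU gave 12172 called rises and 218 called falls among all 15852 tested genes of Huh1. For Huh7 the rises numbered 12591 and the falls 594. Set against DSF, 5-FU gave 10644 rises and 816 falls for Huh1. List counts under this scaling have to be read against these totals, since most tested genes were called higher there. Spike-in scaling moved most counts. Under it 9 members were called higher and 0 lower in Huh7 after 5-FU, 0 were called lower in Huh1, and the comparison with DSF gave 9 higher and 0 lower in Huh1 and 0 lower in Huh7. For other direct p53 targets, Huh1 had 46 higher and 0 lower and Huh7 had 40 and 0, with 10 called lower in the line difference. For genes that act on p53, Huh1 had 13 higher and 0 lower and Huh7 had 12 and 0, with 3 higher and 2 lower in the line difference, and the p21 and DREAM list to 16 and 3 in Huh1 and 26 and 0 in Huh7. Single values turned to 0.48 (TP53I3 in Huh1), 0.38 and 0.80 (XPC in Huh1 and Huh7), 0.66 (RRM2B in Huh7) and 0.05 (line difference of SESN1). The share of calls that were higher moved to 70.2% and 29.8% after DSF in Huh1 and Huh7 (from 50.1% and 54.7%), to 92.9% and 97% for 5-FU against DSF (from 45.4% and 47.1%) and to 68.6% for the line difference (from 54.3%). Median scaling moved it to 30.9% after DSF and 62.7% for 5-FU against DSF in Huh1, and normexp to 36.2% after 5-FU in Huh1, where the median gene stood at -0.13. RRM2B after 5-FU in Huh1, near 0 throughout, turned to -0.024 under normexp, -0.017 under quantile scaling and -0.012 under median scaling, and ranged from -0.031 (without the third control array) to 0.033 with each array left out.

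The 2 members called higher in the line difference became 1 (TP53I3, with XPC lost) under normexp, median and spike-in scaling, no filter on dim probes, an intensity trend, only control and 5-FU arrays, the replicate block, the study's thresholds and without the 2 Huh7 DSF arrays of the third slide, and 1 to 2 with each array left out. The 2 called lower after 5-FU in Huh7 became 1 under normexp, median scaling, no filter, the replicate block and the study's thresholds, and 1 to 2 with each array left out. Members lower after DSF in Huh1 became 5 under median scaling. Members higher after DSF in Huh7 became 4 with the mean over probes and 2 to 4 with each array left out, with 4 without the first Huh7 5-FU array. The member lower against DSF in Huh1 became 0 under quantile and median scaling and that in Huh7 0 under quantile scaling. The p21 and DREAM genes called higher in Huh1 (3) became 5 under normexp and 1 under median scaling or the study's thresholds, and 1 to 4 with each array left out. Genes that act on p53 called higher in Huh1 ranged from 3 to 7 with each array left out, and those called higher in the line difference (5) became 3 under median scaling, slide as a fixed block or the study's thresholds, 2 with no filter, with only control and 5-FU arrays or without the third-slide arrays, and 2 to 5 with each array left out.

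Same-numbered arrays did not deviate together (correlations -0.093 to 0.024), so the replicate number was not taken to pair them. With the replicate block the XPC calls in Huh7 (-0.19) and in the line difference (0.26) were lost, and 6 members stayed called higher in Huh1 and 5 in Huh7. With slide as a fixed block the DSF effect in Huh7 rests on 1 DSF array, so its counts are not given. All other counts of listed genes stayed within 1.5 times the reported ones under the settings run.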
